A study of Mus musculus with 4 samples.

Results

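The Ifi200 family is a row of related genes on mouse chromosome 1, and its RNA was measured here in activated lung group 2 innate lymphoid cells (ILC2s) labelled WT or ICAM-1 KO. Its 10 members described here were found by their gene symbols among the 22558 genes of the count table: Aim2, Ifi206, Ifi213, Ifi209, Ifi207, Ifi204, Ifi203-ps, Mndal, Ifi211 and Ifi203. The members were chosen because earlier values of the comparison of ICAM-1 KO with WT were known, so that comparison is given for each of them as a description, with no p-value. ILC2s have no antigen receptor and answer the tissue cytokine IL-33 with type 2 cytokines. RNA was sequenced from 4 libraries, 2 per genotype. Each library was a pool of 4 mice aged 6 weeks that were given 0.5 µg of rmIL-33 intranasally 3 times, with the cells sorted from the lung on day 4 as lineage-negative CD45+ ST2+ CD127+ cells. Both groups received IL-33, and no unchallenged library was analysed here.

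The labels give the strain of the WT mice as C57BL/6. The methods of the study name C57BL/6J as its wild-type line and B6.129S4-Icam1tm1Jcgr/J as its ICAM-1 deficient line, a constitutive allele present in all cells, whose name denotes an allele made in another strain and moved onto B6. With 1 line per genotype, the Icam1 allele and any other difference between these lines cannot be told apart. The normalized counts of Icam1, the targeted gene, were 85.2 and 83.3 for WT and 97.6 and 110.0 for ICAM-1 KO (log2 fold change 0.33, SE 0.108, Benjamini-Hochberg adjusted p = 0.0745 by edgeR's quasi-likelihood test). The targeted RNA was thus no lower under the ICAM-1 KO label. Gene counts show neither which exons were read nor the level of ICAM-1 protein. The study stained ICAM-1 on lung ILC2s of IL-33-challenged mice by flow cytometry and reports that its ICAM-1 deficient mice lack it.

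Total counts ranged from 24796148 to 28782471 per library. Replicate libraries were more alike (correlation of log2 normalized counts over all tested genes 0.963 in WT and 0.968 in ICAM-1 KO) than libraries of different genotype (0.927 to 0.935). Summed normalized counts of 12 ILC2 marker genes were 6599 and 7234 in WT and 5629 and 5984 in ICAM-1 KO. These genes went both ways, 5 with a positive and 7 with a negative log2 fold change (median -0.10). They include Il5 and Il13, which the study reports as lower in ICAM-1 deficient ILC2s. Markers of other cells also differed: 14 macrophage and monocyte genes summed to 554 and 547 in WT and to 938 and 1159 in ICAM-1 KO, and all 13 of them that were tested had a positive log2 fold change. Sums for dendritic cell (7 genes), T cell (7), B cell (5), neutrophil (5), endothelial (5) and epithelial (6) markers were also higher in both ICAM-1 KO libraries than in both WT libraries. Of the 7 T cell markers, 5 had a positive log2 fold change and 2 a negative one. All tested markers of the other types in this group had a positive one. Epithelial sums varied widely between replicates (407 and 179 in WT, 509 and 1306 in ICAM-1 KO). The sum of 5 eosinophil markers was lower (95.8 and 69.0 in WT against 17.5 and 33.1 in ICAM-1 KO). These markers went both ways, since of the 3 tested 1 was higher and 2 were lower by the limits for a call given below. No marker was at 0 in every library. Since macrophages and other leukocytes can also transcribe Ifi200 genes, these sums stand beside every value that follows, and their part in the differences was not tested. In such bulk libraries, fewer cells that transcribe a gene and less of its RNA per cell cannot be told apart.

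Ifi200 genes, also called PYHIN or HIN genes, are interferon-inducible. Many of their proteins join a pyrin domain, which binds other pyrin domains, to a HIN domain, which binds double-stranded DNA. AIM2 is the best known of them: it detects DNA in the cytosol and recruits ASC, encoded by Pycard, and caspase-1 into an inflammasome. In mice the family arose by repeated duplication, and gene content and expression of the locus are known to vary between inbred strains.

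The 10 members lie between positions 173350879 and 173942672 of chromosome 1 in mm10, a span of 592 kb. Ifi208, Ifi214 and the pseudogene Gm7897 lie between them, and Ifi202b and Ifi205 follow the last member. Aim2 and Ifi209 are on the plus strand and the other 8 members on the minus strand. All are annotated as protein coding apart from Ifi203-ps, an unprocessed pseudogene. Mndal spans the whole of Ifi211 on the same strand, sharing 16702 bases of gene span with it but 0 exon bases. It also shares 22085 bases of span and 37 exon bases with Ifi203 on the same strand, so reads in the shared exon bases could be counted for either gene.

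The copies can be nearly identical, which matters because the deposited counts divide a read that fits several genes among them. The first 60 coding bases show how close the closest copies are, and capitals mark bases that differ within a pair. The sequences come from the GENCODE M21 coding transcripts on GRCm38 (mm10). Those of Ifi209 (chr1:173637306-173637365, plus strand) and Ifi214 (chr1:173529476-173529535, minus strand) differ at 0 positions, as do those of Ifi204 (chr1:173761804-173761863, minus) and Ifi211 (chr1:173907802-173907861, minus). Ifi213 (chr1:173595238-173595297, minus) and Ifi208 (chr1:173677686-173677745, plus) differ at 2 positions.
Ifi209: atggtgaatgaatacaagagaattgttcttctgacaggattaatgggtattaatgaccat
Ifi214: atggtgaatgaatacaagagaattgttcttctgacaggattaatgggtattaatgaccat
Ifi204: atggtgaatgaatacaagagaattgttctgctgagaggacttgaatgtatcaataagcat
Ifi211: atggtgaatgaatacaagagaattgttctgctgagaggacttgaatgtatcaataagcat
Ifi213: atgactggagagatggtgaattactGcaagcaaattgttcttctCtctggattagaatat
Ifi208: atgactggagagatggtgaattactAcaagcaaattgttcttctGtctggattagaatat

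Over aligned coding sequence, Ifi213 was 96.9% identical to Ifi208, Ifi204 was 96.7% identical to Ifi211, and Ifi209 was 96.5% identical to the shorter Ifi214. Ifi206 was 90.4% identical to Ifi213. Among 50-base stretches of each gene's annotated transcripts, 72.8% of those of Ifi211 also occurred in another Ifi200 gene, most often in Ifi205. The share was 33.4% for Ifi209, 26.3% for Ifi203-ps, 19.4% for Ifi204, 17.7% for Mndal, 15.8% for Ifi206, 15.6% for Ifi213, 12.2% for Ifi203 and 7.29% for Ifi207. Aim2 shared 0 such stretches, so its counts did not depend on how reads were divided within the family. Counts of 8 members were not whole numbers in any of the 4 libraries (tolerance 0.01), those of Ifi209 in 3, and those of Aim2 in 0 libraries.

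**Figure D1:**
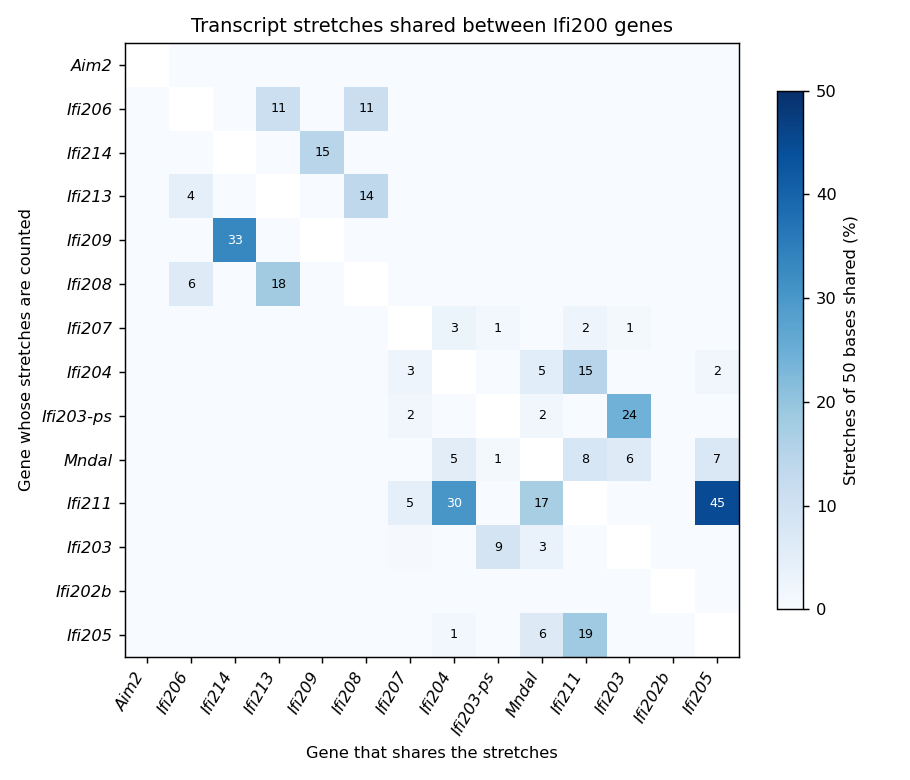
Heat map of the percent of the 50-base transcript stretches of each Ifi200 gene (rows) that also occur in each other one (columns), in their order along chromosome 1, with shares of 1% or more printed in the cells. Darker cells fall into 3 sets that share nothing with each other (Ifi206 with Ifi213 and Ifi208, Ifi209 with Ifi214, and Ifi207 to Ifi205 without Ifi202b), and Aim2 and Ifi202b share 0 stretches.

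Since the family is interferon-inducible, the 250 bases before each RefSeq start site were searched on both strands for GAAA, any 2 bases and GAAA again (GAAA-NN-GAAA), the core of the element bound by interferon-activated factors. RefSeq promoters (GRCm38.p6) were given for 8 of the 10 members, all but Ifi204 and Ifi203-ps, with 2 start sites each for Mndal and Ifi203 and 10 promoters in all. At 1 start site or more, the letters were found for 6 of these 8 genes (Ifi206, Ifi213, Ifi207, Mndal, Ifi211 and Ifi203), as for 3.46% of all 27025 genes of the table. Per promoter, 7 of the 10 held them, as did 2.98% of all 32851 promoters. The promoters of the members are not independent of each other, since the genes are copies. Where aligned, those of Ifi206 and Ifi213 were 98.6% identical and those of Ifi207 and Ifi211 87.8%. The outer start site of Ifi203 had no match, and the inner start site of Mndal had a further match 54 bases before it that is not shown. Those of Aim2 and Ifi209 held no match in this window. The matches shown lay 35 to 73 bases before their start site. Below, 30 bases around 1 match per gene are shown 5′ to 3′ on the gene's strand with the match in capitals, and the like-placed stretch of Ifi209, which lacks the full match, is shown for comparison. Their positions, all on the minus strand but for Ifi209 on the plus strand, are chr1:173491339-173491368 for Ifi206, chr1:173599326-173599355 for Ifi213, chr1:173741831-173741860 for Ifi207, chr1:173880204-173880233 for Mndal, chr1:173913064-173913093 for Ifi211, chr1:173942508-173942537 for Ifi203 and chr1:173630770-173630799 for Ifi209.
Ifi206: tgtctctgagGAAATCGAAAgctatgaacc
Ifi213: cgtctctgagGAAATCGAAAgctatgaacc
Ifi207: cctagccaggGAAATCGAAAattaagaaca
Mndal: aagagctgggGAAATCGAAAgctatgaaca
Ifi211: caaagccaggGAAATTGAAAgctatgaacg
Ifi203: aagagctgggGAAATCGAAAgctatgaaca
Ifi209: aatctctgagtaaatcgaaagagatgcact

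The windows of Mndal and Ifi203 are the same letter for letter. All 30 bases of the Mndal window lie in annotated exon of GENCODE M21, against 0 bases of the other windows. In GENCODE M21 the Mndal gene begins at position 173942491, next to the inner RefSeq start site of Ifi203 (173942492). The outer RefSeq start site of Mndal (173880187) therefore lies inside the gene as annotated there. A match describes the letters only and says nothing of whether a factor was bound in these cells.

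The members did not move together. Of the 10, both ICAM-1 KO libraries lay above both WT libraries for 4 (Ifi207, Ifi204, Ifi203-ps and Ifi211) and below them for 5 (Ifi206, Ifi213, Ifi209, Mndal and Ifi203), and the groups overlapped for Aim2. In all, 8 members reached the limits for testing (normalized counts that average 1 or more and sum to 10 or more over the 4 libraries). Ifi213, with a sum of 8.03, and Ifi204, with 5.02, did not. Ifi206 reached the limits through the WT libraries alone and Ifi203-ps and Ifi211 through the ICAM-1 KO libraries alone. Ifi207 reached them mostly through the ICAM-1 KO libraries, with a sum of 3.57 in WT and 8.47 in ICAM-1 KO. For 7 of these 8 the groups did not overlap, as was the case for 59.5% of all 11711 genes tested (28.3% with ICAM-1 KO above, 31.3% with ICAM-1 KO below). A gene was called when its adjusted p was under 0.05 and it changed 2-fold or more. By these limits, given for the members as a description only, 4 of the 8 passed, Ifi203-ps and Ifi211 higher and Mndal and Ifi206 lower, against 5.47% of all genes tested (4.94% higher and 0.538% lower). A further 2 members, Ifi209 and Ifi203, passed 0.05 but changed less than 2-fold, making 6, against 13.8% of all genes. The members were picked on this comparison, and 3 of them reached the limits through 1 group alone and Ifi207 mostly so. Nothing is therefore read from these counts. The median log2 fold change of the 8 was -0.28, beside 0.01 over all genes tested.

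Aim2, the cytosolic DNA sensor and the member free of shared stretches, had 673 and 745 counts in WT and 566 and 810.0 in ICAM-1 KO. The groups overlapped, with the ICAM-1 KO libraries at both ends of the range. Its normalized count was 22.9 ± 0.970 (SD, n = 2 libraries here and for all values that follow) in WT and 22.8 ± 4.35 in ICAM-1 KO, for a log2 fold change of 0.02 (SE 0.194).

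Mndal, a gene named for its likeness to the human myeloid nuclear differentiation antigen, was the most abundant member per kb of exon in WT. It had 1434 and 1489.5 counts in WT and 155 and 221 in ICAM-1 KO. Both ICAM-1 KO libraries were far below both WT libraries. Its normalized count was 47.3 ± 0.136 in WT and 6.24 ± 1.17 in ICAM-1 KO, 7.57 times higher in WT, with a log2 fold change of -2.89 (SE 0.196).

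Ifi206 is the neighbour of Aim2 on the opposite strand. It had 198 and 223 counts in WT and 22.0 and 12.0 in ICAM-1 KO. The groups did not overlap. Its normalized count of 6.83 ± 0.368 in WT was 11.3 times that in ICAM-1 KO (0.605 ± 0.272), for a log2 fold change of -3.55 (SE 0.498).

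Ifi213, listed in RefSeq also as Pydc4, is the closest relative of Ifi208 in the family. It had 134 and 92.2 counts in WT and 3.82 and 12.9 in ICAM-1 KO. Again both ICAM-1 KO libraries were the lower ones. Its normalized count was 3.71 ± 1.07 in WT and 0.305 ± 0.195 in ICAM-1 KO, 12.2 times higher in WT, and a fit with no limit on low counts gave a log2 fold change of -3.69 (SE 0.659).

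Ifi209, listed in RefSeq also as Pyhin1, had 850.0 and 885 counts in WT and 470.5 and 482 in ICAM-1 KO. Ifi203 had 987 and 949.6 counts in WT and 621 and 612 in ICAM-1 KO. For both genes every ICAM-1 KO library lay below every WT library, by a smaller margin than for Mndal, Ifi206 and Ifi213. The normalized count of Ifi209 was 28.1 ± 0.0291 in WT and 15.9 ± 0.691 in ICAM-1 KO, for a log2 fold change of -0.80 (SE 0.174). That of Ifi203 was 31.4 ± 1.78 in WT and 20.5 ± 1.46 in ICAM-1 KO, for a log2 fold change of -0.58 (SE 0.164).

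Ifi203-ps, a pseudogene copy of Ifi203, had the largest positive difference of the 10 members. It had 4.4 and 13.6 counts in WT and 177 and 182 in ICAM-1 KO. The ICAM-1 KO libraries were close to each other and far above both WT libraries. Its normalized count was 0.321 ± 0.201 in WT and 6.01 ± 0.259 in ICAM-1 KO, a ratio of 18.7 and a log2 fold change of 4.37 (SE 0.587). Without WT library 2 the log2 fold change was 5.48, so the size rests on the few WT counts.

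Ifi211, listed in RefSeq also as Mnda, had 51.4 and 40.2 counts in WT and 157 and 171 in ICAM-1 KO. Both ICAM-1 KO libraries were above both WT libraries, yet this is the member that shares most of its sequence with other copies. Its normalized count was 1.52 ± 0.302 in WT and 5.49 ± 0.00206 in ICAM-1 KO, a ratio of 3.62 and a log2 fold change of 1.91 (SE 0.410). Without WT library 1 or without WT library 2 it no longer passed the limits for a call.

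Ifi207 had 70.9 and 36.7 counts in WT and 101 and 154 in ICAM-1 KO. Ifi204, a sensor of DNA often set beside human IFI16, had 26.3 and 22.2 counts in WT and 51.3 and 48.3 in ICAM-1 KO. The groups did not overlap for either gene, but both were scarce. The normalized count of Ifi207 was 1.78 ± 0.833 in WT and 4.23 ± 1.00 in ICAM-1 KO, for a log2 fold change of 1.30 (SE 0.471). That of Ifi204 was 0.817 ± 0.118 in WT and 1.69 ± 0.174 in ICAM-1 KO, and the fit with no limit on low counts gave a log2 fold change of 1.06 (SE 0.521).

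**Figure D2:**
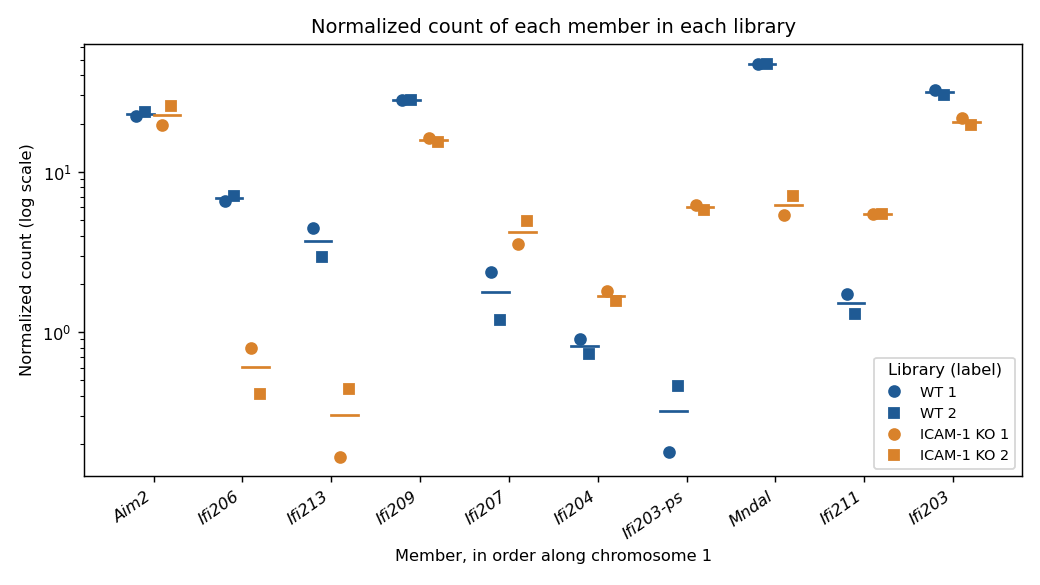
Normalized count of each of the 10 members in each library on a log axis (points, WT in blue and ICAM-1 KO in orange, short lines for group means), with members in their order along chromosome 1. The points of Aim2 overlap between genotypes, those of Mndal, Ifi206 and Ifi213 are lower in ICAM-1 KO and those of Ifi203-ps are higher.

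Levels were then ordered per kb of annotated exon, so that members of different length could be set beside each other. In WT, Mndal was highest at a mean of 13.0 normalized counts per kb, followed by Ifi209 (7.92), Aim2 (6.55), Ifi203 (4.68) and Ifi206 (2.24). Below them came Ifi211 (0.850), Ifi213 (0.542), Ifi207 (0.521), Ifi204 (0.230) and Ifi203-ps (0.125). Of these neighbours in the WT order, the libraries of Ifi213 and Ifi207 overlapped and all others did not. In ICAM-1 KO the order began with Aim2 (6.50) and Ifi209 (4.48), followed by Ifi211 (3.08) and Ifi203 (3.06), whose libraries overlapped. Ifi203-ps (2.35), Mndal (1.72), Ifi207 (1.24), Ifi204 (0.475), Ifi206 (0.198) and Ifi213 (0.0446) came after them, and their neighbours in this order did not overlap. Mndal thus stood first of the 10 in WT and below Ifi203-ps in ICAM-1 KO, while Ifi203-ps was last in WT and followed Ifi203 in ICAM-1 KO.

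As shares of the counts of the 10 members, Mndal made up 32.4% (95% Wilson interval 31.0 to 33.8) and 33.1% (31.8 to 34.5) in the WT libraries. In the ICAM-1 KO libraries it made up 6.67% (5.72 to 7.75) and 8.17% (7.20 to 9.26). The share of Aim2, whose level did not differ beyond the spread between libraries, was 15.2% (14.2 to 16.3) and 16.6% (15.5 to 17.7) in WT and 24.3% (22.6 to 26.1) and 29.9% (28.2 to 31.7) in ICAM-1 KO. Ifi203-ps made up 0.0993% (0.0351 to 0.232) and 0.303% (0.186 to 0.522) in WT and 7.63% (6.60 to 8.76) and 6.72% (5.84 to 7.74) in ICAM-1 KO. These intervals cover counting error only. The summed normalized count of the 10 members was 146 and 142 in WT and 80.7 and 86.2 in ICAM-1 KO, so the sum in ICAM-1 KO was 0.578 of that in WT. With the 4 other Ifi200 genes added it was 0.625 of the WT sum.

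**Figure D3:**
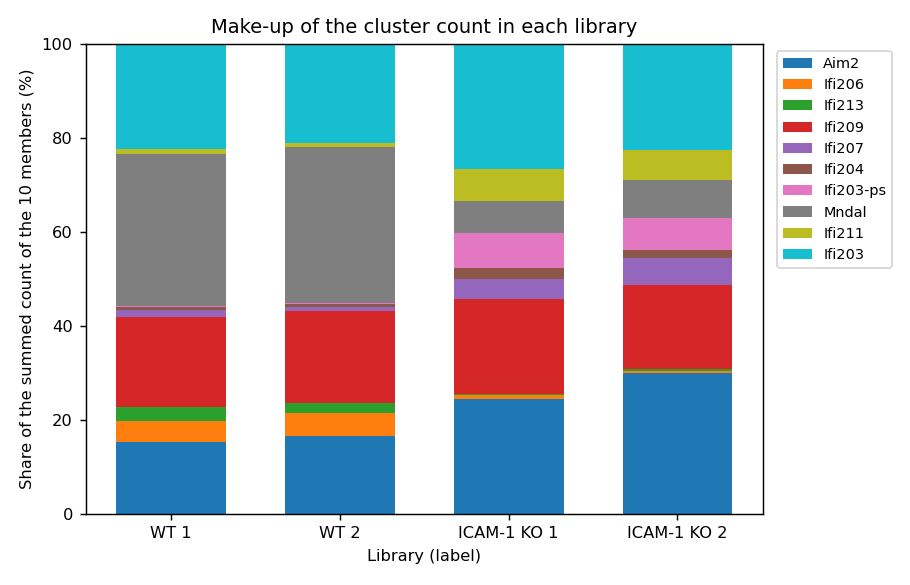
Share of each member in the summed counts of the 10 members, in percent, as 1 stacked bar for each of the 4 libraries. Mndal takes 32.4% and 33.1% of the WT bars and 6.67% and 8.17% of the ICAM-1 KO bars, and Ifi203-ps takes 7.63% and 6.72% of the ICAM-1 KO bars but under 1% of the WT bars.

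Of the 4 Ifi200 genes that are not members, Ifi202b and Ifi214 were higher in both ICAM-1 KO libraries than in both WT libraries, and Ifi208 and Ifi205 overlapped. Ifi202b encodes p202, which lacks a pyrin domain and can oppose AIM2, and its RNA is known to be very low in C57BL/6 mice. It had 0 counts in both WT libraries and 80 and 132 in the ICAM-1 KO libraries, at least 36.3-fold higher against a floor of 3 counts per WT library. Ifi202b shared 0 stretches of 50 bases with the family. Ifi214 had 28.0 and 19.0 counts in WT and 84.5 and 72.0 in ICAM-1 KO, without overlap, and fell short of the limits for testing. Ifi208 had 173 and 229 counts in WT and 94.2 and 193 in ICAM-1 KO (log2 fold change -0.42, SE 0.376, adjusted p = 0.493 by edgeR's quasi-likelihood test). Ifi205 had 35.6 and 36.2 counts in WT and 28.5 and 45.6 in ICAM-1 KO. Gm7897, a pseudogene between Ifi203-ps and Mndal, had 0 counts in both WT libraries and 23 and 12 in ICAM-1 KO, at least 6.43-fold higher against the same floor.

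**Figure D4:**
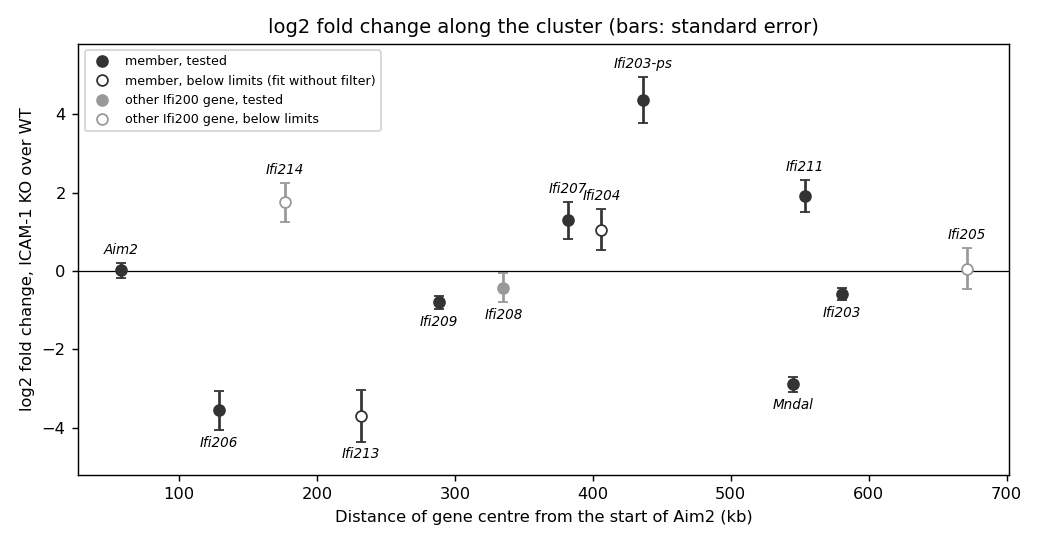
Log2 fold change of ICAM-1 KO over WT for Ifi200 genes (black members, grey others) against the distance in kb of the gene's centre from the start of Aim2. Bars are standard errors, open points are genes under the limits for testing, from the fit without limits, and genes with lower and higher values lie among each other from -3.69 for Ifi213 to 4.37 for Ifi203-ps. Ifi202b is left out since it had 0 counts in WT.

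To see which differences hold however reads were divided among copies, counts were summed over sets of genes whose sums were whole numbers in all 4 libraries. These sets were found after the counts had been seen. Within the family, their genes share 50-base stretches with genes of the same set only. Some stretches also occur outside the family: counted over all other genes, the shared part was 25.6% for Ifi206 and 19.6% for Mndal. Ifi209 and Ifi214 formed 1 set, with 878 and 904 counts in WT and 555 and 554 in ICAM-1 KO. Its normalized sum (the summed count times the library's scaling factor) was 28.8 ± 0.255 in WT and 18.5 ± 1.14 in ICAM-1 KO, 1.56 times higher in WT. Ifi209 alone was 1.77 times higher in WT, so the difference of Ifi209 remained in the set to which its shared reads belong.

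Ifi206, Ifi213 and Ifi208 formed a set with 505 and 544 counts in WT and 120.0 and 218 in ICAM-1 KO. Its normalized sum was 16.9 ± 0.392 in WT and 5.56 ± 1.97 in ICAM-1 KO, 3.05 times higher in WT without overlap. Ifi208 took 34.2% (95% Wilson interval 30.3 to 38.5) and 42.1% (38.0 to 46.3) of this set in WT, and 78.5% (70.1 to 84.8) and 88.6% (83.6 to 92.1) in ICAM-1 KO. The size for Ifi206 or Ifi213 alone (11.3 and 12.2 times) can depend in part on how shared reads were divided within the set. Stretches shared with the family were 15.8% of those of Ifi206 and 15.6% of those of Ifi213, and how far the division changed the sizes was not tested. The direction of the sum does not depend on it.

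The third set held the other 7 Ifi200 genes that share stretches (Ifi207, Ifi204, Ifi203-ps, Mndal, Ifi211, Ifi203 and Ifi205) and Gm18445, a pseudogene with 7.23 counts in 1 ICAM-1 KO library and none in the others. It had 2610 and 2588 counts in WT and 1298 and 1434 in ICAM-1 KO. Its normalized sum was 84.1 ± 2.98 in WT and 45.4 ± 0.447 in ICAM-1 KO, 1.85 times higher in WT. The sum was lower in ICAM-1 KO although Ifi207, Ifi204, Ifi203-ps and Ifi211 within it were higher. In WT, Mndal took 55.0% and 57.6% of this set and Ifi203 took 37.8% and 36.7%, so the direction of the sum mostly follows these genes. It cannot show whether the differences of the higher members hold under another division of reads.

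Some sums within this set were also formed, although they are not closed to other genes. Ifi203 and Ifi203-ps together had 991 and 963 counts in WT and 798 and 794 in ICAM-1 KO, a normalized sum of 31.6 ± 1.57 against 26.5 ± 1.71, or 0.838 of WT. Ifi203 alone was at 0.655 of WT, so part of its difference was matched by Ifi203-ps, the copy with which it shares most stretches. Mndal and Ifi203 together had 2421 and 2439 counts in WT and 776 and 833 in ICAM-1 KO, 2.94 times higher in WT. Mndal with Ifi204, Ifi205 and Ifi211 had 1548 and 1588 counts in WT, of which Mndal alone gave 1434 and 1489.5. This sum was 3.48 times higher in WT. Without Mndal the direction was the other one. Ifi204, Ifi211 and Ifi205 together had 113 and 98.6 counts in WT and 237 and 265 in ICAM-1 KO, 2.43 times higher in ICAM-1 KO.

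**Figure D5:**
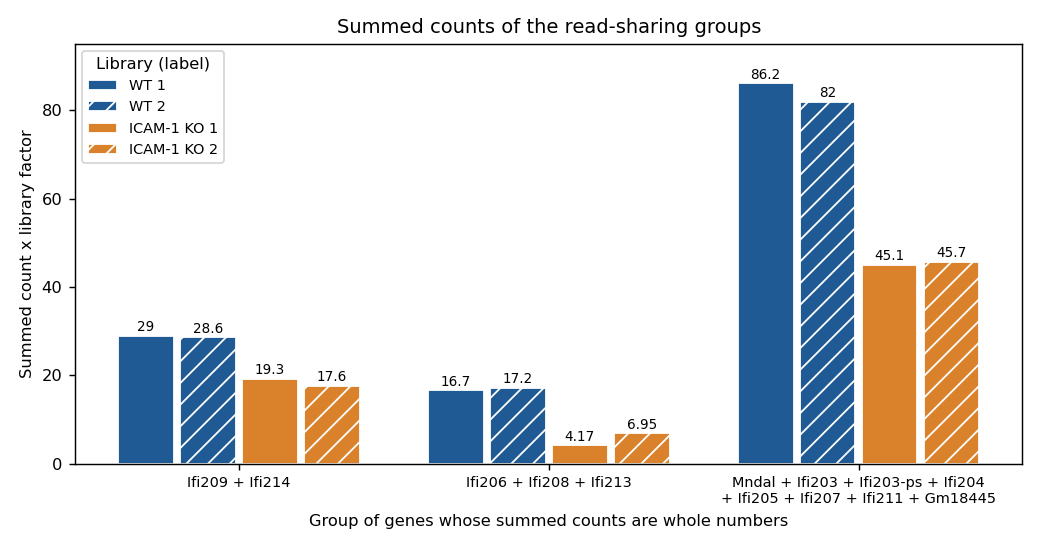
Summed count times the library's scaling factor (bars from 0, 1 per library, WT in blue and ICAM-1 KO in orange) for the 3 sets of Ifi200 genes with whole sums. Each set is lower in both ICAM-1 KO libraries than in both WT libraries, by 1.56 times for Ifi209 with Ifi214, 3.05 times for Ifi206 with Ifi213 and Ifi208, and 1.85 times for the other 7 genes with Gm18445.

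Genes that act with AIM2 or in other DNA-sensing and inflammasome steps were taken from a list of 36 symbols, of which 34 were in the table and 30 were tested. The symbols that were not in the table, Mb21d1 and Sting1, are other names of Cgas and Tmem173, which were in it. Of these 30, 1 was called higher and 1 lower (4.94% and 0.538% of all genes tested), and the median log2 fold change was -0.11. Casp4, which encodes the caspase that detects cytosolic lipopolysaccharide, had 821 and 888 counts in WT and 312 and 317 in ICAM-1 KO, with a log2 fold change of -1.37 (SE 0.192, adjusted p = 0.00329 by edgeR's quasi-likelihood test). Mefv, which encodes the sensor pyrin, had 67 and 28 counts in WT and 133 and 197 in ICAM-1 KO (log2 fold change 1.86, SE 0.479, adjusted p = 0.0358 by edgeR). Without WT library 1, WT library 2 or ICAM-1 KO library 2, 1 gene of the list was called, a lower one. Mefv is mostly a gene of myeloid cells, whose markers were higher in the same libraries, and the part of such cells in its difference was not tested.

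The direct partners of AIM2 did not pass. Pycard, which encodes the adaptor ASC, had a normalized count of 98.7 ± 5.36 in WT and 111 ± 5.61 in ICAM-1 KO (fold change on the log2 scale 0.20, adjusted p = 0.218 by edgeR). Casp1, the inflammasome protease gene, was at 39.8 ± 6.21 in WT and 27.7 ± 0.320 in ICAM-1 KO (fold change on the log2 scale -0.50, adjusted p = 0.0715 by edgeR). For the other main route of cytosolic DNA sensing, Cgas had a log2 fold change of -0.48 (adjusted p = 0.200 by edgeR) and Tmem173, which encodes STING, of -0.28 (adjusted p = 0.104 by edgeR).

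Because Ifi200 genes respond to interferon, 48 interferon receptor, signalling and target genes were also counted. Of the 42 tested, 1 was called higher and 1 lower, beside the same shares of all genes, and the median log2 fold change was -0.04. Bst2, which encodes the antiviral protein tetherin, had 2529 and 2750.0 counts in WT and 1045 and 1323 in ICAM-1 KO (log2 fold change -1.09, SE 0.125, adjusted p = 0.00146 by edgeR's quasi-likelihood test). Ifi27l2a, an interferon target, had 540.0 and 1007 counts in WT and 1607 and 1859 in ICAM-1 KO (log2 fold change 1.23, SE 0.227, adjusted p = 0.0106 by edgeR). Without WT library 1 the higher call was lost, and without ICAM-1 KO library 1 the lower call was lost and 2 genes were called higher. Irf7, an interferon-induced factor, had a log2 fold change of 0.24 (adjusted p = 0.347 by edgeR).

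The genes around the family were also compared. Within 2 Mb of the outermost members the table held 60 genes that belong to neither the members nor the other Ifi200 genes, of which 29 were tested, with 6 called higher and 1 lower, against 4.94% and 0.538% of all genes tested. All 7 lay on the side of Aim2, where 26 genes were tested, and 3 genes were tested on the other side. Slamf9, a gene of the SLAM receptor family, had 24 and 45 counts in WT and 215 and 214 in ICAM-1 KO (log2 fold change 2.70, SE 0.429, adjusted p = 0.00594 by edgeR's quasi-likelihood test). Itln1, which encodes a carbohydrate-binding lectin, had 14 and 4 counts in WT and 416 and 2688 in ICAM-1 KO (log2 fold change 7.45, SE 1.22, adjusted p = 0.00649 by edgeR), a spread of several fold between the ICAM-1 KO libraries. Gm9765 had 0 counts in both WT libraries and 50.4 and 292 in ICAM-1 KO, at least 57.3-fold higher against a floor of 3 counts per library. It too differed several fold between the ICAM-1 KO libraries. Counts of Itln1 and Gm9765 were not whole in the 2 ICAM-1 KO libraries, so some of their reads were divided among genes. Whether these 2 genes share reads was not tested, so they may not be separate calls. Dusp23, a phosphatase gene, fell, with 497 and 604 counts in WT and 158 and 273 in ICAM-1 KO (log2 fold change -1.29, SE 0.275, adjusted p = 0.0179 by edgeR). Without WT library 1 or WT library 2, 3 of these genes were called, all higher.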

How the data were processed

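Per the study's methods, the authors amplified cDNA of sorted ILC2s (SMARTer low-input kit) and mapped reads to mm10 with STAR and GENCODE M20. The submitters' processing notes give STAR version 3.5.3, and the methods name another version. The deposited count table is named for Partek's E/M method, which divides a read that fits several genes. The deposited table gives these unnormalized expected counts for 22558 genes. Over all genes, 61.1% of the values were whole (tolerance 0.01). A second table deposited by the authors holds the normalized signal of 18324 genes, in which 1 was added to each count before upper quartile scaling, and means ± SD of single genes are over these normalized counts. The sources used here do not say whether strand was used in counting. The table has 21 symbols turned into dates, which are not named. Samples were grouped by the genotype in their labels. Pools of different mice are the replicates, so p-values measure the spread between these libraries, and with 2 per group an exact permutation test cannot pass 0.05.

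Counts were rounded and tested with edgeR 4.0.16 (R 4.3.3, quasi-likelihood test in its newer form, upper quartile factors). Benjamini-Hochberg adjustment ran over the 11711 genes whose normalized counts average 1 or more and sum to 10 or more. A call needed a change of 2-fold or more with an adjusted p under 0.05. On simulated counts for these 11711 genes and this comparison, 200 genes were changed in each of 3 draws. At an adjusted p under 0.05 alone, without the 2-fold limit, 72% of genes changed by 1 on the log2 scale were recovered. For genes changed by 2 on that scale it was 93%, and 5.01% of those passing were false. The simulated spread followed the mean count only, and recovery with the 2-fold limit was not simulated. Positions, 50-base stretches, exon lengths and coding sequences are from GENCODE M21 on mm10, and promoters from RefSeq on GRCm38.p6. Folds against a group at 0 use 3 counts per library, and such floors and all intervals cover counting error only, since the reads carry no molecular identifiers and can be PCR copies.

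The members and all gene lists were chosen with earlier results of these data known. The genes named are the members, other Ifi200 rows, up to 3 called genes in each direction with the largest change in each list, Icam1, Pycard, Casp1, Tmem173, Cgas and Irf7, and the 3 tested genes nearest in pattern to each called member. A gene of this rule and a second motif searched are not reported here. Gm7897 and Gm18445 were named after their values were seen. Alternatives were TMM factors, DESeq2 1.42.0, limma 3.58.1 on log2 of the normalized count plus 1, other limits on low counts, the older form of the test, a replicate block and leaving out each library.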

Additional observations from a re-analysis of the deposited data

How the results depend on the processing

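The 641 genes called in all became 312 with no limit on low counts, and 388 to 676 when 1 library was left out, the fewest without WT library 1. Of the members, 4 were called, and 3 to 5 under the alternatives: 5 with filterByExpr, which adds Ifi213, and 3 with at least 10 counts in every library, where Ifi203-ps was not tested. With no limit on low counts Ifi213 was called and Ifi211 was not. The 2 called genes of the DNA-sensing list became 1 with no limit on low counts, with filterByExpr and with the older form of the test, and 1 to 2 with 1 library left out. The 2 of the interferon list became 1 with no limit and 1 to 2 with 1 library left out, and without ICAM-1 KO library 1 both were higher. The 7 neighbouring genes became 3 with no limit and 3 to 6 with 1 library left out. The cause of these changes was not tested.

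Of 95 log2 fold changes of members under the alternatives, 85 moved by less than the spread between libraries and 10 by more, and Ifi206, Ifi203-ps, Mndal and Ifi211 kept their direction under every alternative run. The log2 fold change of Aim2 was between -0.21 and 0.21 with 1 library left out. limma on log2 of the normalized count plus 1 gave smaller sizes for scarce members, with -2.30 for Ifi206, 2.42 for Ifi203-ps and 1.37 for Ifi211.

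Both genotypes use the replicate numbers 1 and 2, but the pools are of different mice, and same-numbered libraries did not deviate together (correlation -0.0663). With the number as a replicate block, 668 genes were called, with 4 members, 2 DNA-sensing genes, 2 interferon genes and 7 neighbouring genes among them. Ifi213, Ifi204, Ifi214, Ifi202b and Ifi205 did not reach the limits for testing at this depth.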

Other observations

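The genes nearest in pattern to each called member, by Euclidean distance between log2 normalized counts centred over the 4 libraries, were listed as a description, since 4 libraries in 2 groups leave many genes alike. For Mndal they were Enah (distance 0.458), Gm26781 (0.493) and Clgn (0.627). For Ifi206 they were Dscaml1 (0.502), Ctse (0.924) and Igkv12-89 (1.04). For Ifi203-ps they were Mertk (0.479), Nxpe1-ps (0.550) and Igkv4-91 (0.949), and for Ifi211 they were Ptprm (0.0762), Pde2a (0.122) and Tmem204 (0.156). The normalized count of Enah, which encodes a regulator of actin, was 5.35 and 5.38 in WT and 0.833 and 1.12 in ICAM-1 KO. That of Mertk, a receptor for apoptotic cells on macrophages, was 0.165 and 0.633 in WT and 5.66 and 6.66 in ICAM-1 KO.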
